A study of Rattus norvegicus with 12 samples.

Results

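The nuclear-encoded genes of the respiratory chain and the ATP synthase were followed through differentiated cells of 1464R, an immortalized line of adult rat neural stem cells, by RNA sequencing. Members were taken by gene name alone, as rows named Nduf with a subunit or assembly factor letter, Sdha to Sdhd, Uqcr, Cox4 to Cox8 or Atp5. This gave 98 of the 32883 genes in the tables. Of them 7 are core subunits of complex I, 31 are accessory subunits and 8 are assembly factors of complex I, 4 belong to complex II, 9 to complex III, 22 to complex IV and 17 to complex V. The accessory subunits include the row named Ndufs6, which the files annotate as a processed pseudogene. Ndufa4 and its paralog Ndufa4l2 were placed with complex IV, where the Ndufa4 protein is now assigned. The members carry 94 symbols, since 4 symbols stand on 2 genes each, and these are told apart below by chromosome.

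Complexes I and II pass electrons from NADH and succinate to coenzyme Q, complex III hands them to cytochrome c, and complex IV reduces oxygen with them. Complexes I, III and IV pump protons out of the mitochondrial matrix as they do so, and complex V, the ATP synthase, lets the protons back in to make ATP. Apart from complex II, each complex joins subunits of the mitochondrial genome with subunits of the nuclear genome, and neurons and myelinating glia both depend on this supply of ATP. The genes described here are the nuclear ones.

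Cells were differentiated for 4 days with serum and retinoic acid and then kept for 48 h in medium without serum. Control cells (n = 3 libraries) had neither virus nor drug, and Eda cells (n = 3) had 50 μmol/L edaravone, a free radical scavenger used in amyotrophic lateral sclerosis, from the change of medium. TDP-43 + EA cells (n = 3) were infected at the change of medium with adenoviruses for TDP-43, an RNA-binding protein that aggregates in that disease, and had 20 μmol/L ethacrynic acid, which depletes glutathione, 24 h later. TDP-43 + EA + Eda cells (n = 3) had all of these agents. The last 2 groups are called stressed and stressed + Eda below. The study's methods name adenoviruses for the full-length human protein and for its C-terminal fragment, both tagged with DsRed, whereas the sample labels name the fragment alone. They also state the vehicle, DMSO, for cells without edaravone. None of these 4 groups had the viruses or ethacrynic acid singly, and such cells are not analysed here, so within these libraries their shares cannot be told apart. All cells come from a single line. The sequencing is described as n = 3 in 3 experiments, while the labels do not tie a library to an experiment, so a p-value measures the spread between these libraries.

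Libraries held 17.4 to 24.6 M counts (M for 1000000), except for replicate 1 of TDP-43 + EA + Eda with 43.9 M. Levels are given as CPM (counts per 1000000 counts) scaled by TMM, a factor per library that offsets differences in RNA composition, or as TPM (transcripts per 1000000 transcripts), which are divided by length and allow levels of different genes to be set side by side. TMM factors were 1.02 to 1.10 in 3 groups and 0.829 to 0.860 in TDP-43 + EA + Eda. As a check of the labels, Tardbp, the rat gene of TDP-43, was at 51.4 to 59.7 TPM in the libraries labelled without virus and at 1490 to 4057 TPM in those with it, and Hmox1, heme oxygenase 1, was at 46.5 to 69.1 and at 5033 to 17940 TPM. Both genes were also called higher in stressed + Eda cells than in stressed cells (median log2 fold change 1.36). TDP-43 RNA thus differed between these groups too. The viruses carry the human sequence, and how far its reads were counted on the rat gene was not tested. The labels call the cells motor neuron-like, while the methods speak of neuronal and glial cells. Of 8 neuron markers Stmn2 was at 0 in every library, Snap25 and Rbfox3 reached at most 0.409 and 1.26 TPM, and Tubb3 was at 116 to 369 TPM. Together the 8 neuron markers summed to 385 to 470 TPM in Control and 403 to 467 TPM in Eda. They summed to 234 to 358 TPM in TDP-43 + EA and 170 to 314 TPM in TDP-43 + EA + Eda. In Control 6 astrocyte markers summed to 294 to 422 TPM and 5 neural stem cell markers to 544 to 715 TPM. By contrast the 8 oligodendrocyte markers summed to 31897 to 40016 TPM in Control, 29875 to 35048 TPM in Eda, 15056 to 19166 TPM in TDP-43 + EA and 12186 to 16346 TPM in TDP-43 + EA + Eda. In bulk RNA, fewer cells of a type and less RNA per cell cannot be told apart.

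Promoters of 6 members are shown because the results below turn on these genes: Ndufa11, Ndufa3, Uqcrq and Cox8a were lower in stressed cells, Atp5f1b was not called in any comparison under TMM scaling, and Atp5if1 was higher. Each run of 180 bases, from RefSeq on the rat build GRCr8, reads 5′ to 3′ along the gene from 150 bases before its start to 30 bases after it.
Ndufa11 (chr9:1637464-1637643, plus strand): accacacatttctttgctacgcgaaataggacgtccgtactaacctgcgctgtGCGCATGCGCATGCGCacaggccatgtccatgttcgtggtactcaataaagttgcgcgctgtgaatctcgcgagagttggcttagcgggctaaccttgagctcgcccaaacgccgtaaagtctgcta
Ndufa3 (chr1:74515529-74515708, minus strand): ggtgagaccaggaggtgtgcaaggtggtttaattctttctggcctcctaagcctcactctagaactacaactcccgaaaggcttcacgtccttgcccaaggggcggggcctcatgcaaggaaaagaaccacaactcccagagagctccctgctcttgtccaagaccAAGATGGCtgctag
Uqcrq (chr10:38089949-38090128, minus strand): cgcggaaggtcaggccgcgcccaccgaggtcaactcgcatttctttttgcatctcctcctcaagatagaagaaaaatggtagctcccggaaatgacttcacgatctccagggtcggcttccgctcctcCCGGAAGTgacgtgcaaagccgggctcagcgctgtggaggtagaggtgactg
Cox8a (chr1:213833594-213833773, minus strand): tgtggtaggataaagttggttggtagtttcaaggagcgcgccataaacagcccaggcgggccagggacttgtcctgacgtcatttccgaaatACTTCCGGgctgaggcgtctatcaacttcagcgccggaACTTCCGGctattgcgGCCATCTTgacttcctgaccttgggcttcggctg
Atp5f1b (chr7:1099908-1100087, plus strand): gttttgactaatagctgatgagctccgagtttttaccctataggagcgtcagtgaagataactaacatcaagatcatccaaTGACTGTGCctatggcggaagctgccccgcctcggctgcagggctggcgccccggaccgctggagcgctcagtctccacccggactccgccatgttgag
Atp5if1 (chr5:150026648-150026827, minus strand): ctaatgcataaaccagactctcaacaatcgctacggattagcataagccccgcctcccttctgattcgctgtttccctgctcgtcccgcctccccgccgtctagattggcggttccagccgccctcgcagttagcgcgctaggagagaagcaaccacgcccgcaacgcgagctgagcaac
Capitals mark exact matches, on either strand, to letters known from binding sites of nuclear respiratory factor 1 (NRF1, a palindrome of 10 bases, the first 10 capitals of the Ndufa11 line), of ETS factors such as GABPA (CCGGAAGT), of YY1 (AAGATGGC), of the antioxidant response element read by Nrf2 (TGACNNNGC) or of the ATF4 element (TGATGNAA). Ndufa11 holds a pair of overlapping NRF1 matches, Ndufa3 a YY1 match, Uqcrq an ETS match, Cox8a 2 ETS matches and a YY1 match, Atp5f1b an antioxidant response element match and Atp5if1 no match.

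RefSeq promoter windows of 300 bases (250 before the start and 50 after it) matched 80 of the 98 members. The YY1 letters were in 16 of these 80 windows (20% against 3.17% of all 33469 windows), the NRF1 letters in 6 (7.5% against 0.852%) and the ETS letters in 8 (10% against 3.81%). The antioxidant response element letters were in 10 (12.5% against 12.1%) and the ATF4 letters in 1 (1.25% against 3.98%). Over the 21851 windows of protein-coding genes alone, the shares were 3.67% for YY1, 1.08% for NRF1 and 4.77% for ETS. There the antioxidant response element letters were in 12.5% and the ATF4 letters in 3.35%. YY1 letters occurred in every class, with 6 of 26 windows among the accessory subunits of complex I and 4 of 15 in complex V, and 3 of the 6 NRF1 matches lay in complex V. Shares were not compared between members that fell and the others. Ndufv2, Ndufc2, Sdha, Uqcrfs1, Cox7c and Atp5f1c fell in stressed cells against Control and had no match in their windows. Sdhc, Uqcrc1 and Uqcrh had a YY1 or ETS match and were not called in that comparison. A match is a description of the letters and not evidence of binding.

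In Control cells the members together took 1.51 to 1.57% of all counts and summed to 49696 to 50403 TPM. Complex IV held the most (16507 to 16609 TPM), ahead of complex I with its core and accessory subunits (14675 to 15140 TPM) and complex V (13161 to 13273 TPM), while complex III (3586 to 3701 TPM) and complex II (1342 to 1436 TPM) held far less. These ranges do not overlap. The order depends on the division by length. On TMM-scaled CPM complex V held the most (5055 to 5275 CPM), ahead of complex I (4034 to 4141 CPM) and complex IV (2634 to 2729 CPM). By TPM the 5 most abundant members were all subunits of cytochrome c oxidase: Cox6a1 averaged 3316 ± 65.5 TPM (SD, n = 3), Cox5b 2785 ± 206 TPM, Cox6c 2699 ± 133 TPM, Cox8a 2326 ± 11.03 TPM and Cox7c 1470 ± 14.6 TPM. Cox5b and Cox6c differed by less than the SD of either. The catalytic subunit of the ATP synthase, Atp5f1b, came next at 1454 ± 30.8 TPM. In complex I the accessory subunit Ndufa7 (976 ± 18.8 TPM) was highest, and the iron-sulfur core subunit Ndufs1 (68.3 ± 0.587 TPM) and the acyl carrier protein Ndufab1 (42.2 ± 1.43 TPM) were the lowest tested core and accessory subunits. Uqcr11 (1027 ± 54.5 TPM) and Uqcrb on chromosome 7 (129 ± 4.54 TPM) bounded complex III, and Sdhc (456 ± 25.4 TPM) and Sdha (146 ± 2.14 TPM) bounded complex II. Atp5pb, a subunit of the peripheral stalk, was lowest in complex V at 142 ± 3.52 TPM, and Cox7a1, the heart and muscle form of subunit 7a, lowest among the tested members of complex IV at 0.840 ± 0.231 TPM. The assembly factors ran from Ndufaf8 (203 ± 9.59 TPM) to Ndufaf1 (6.31 ± 0.834 TPM).

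A filter on low counts kept 88 of the 98 members for testing. The 10 others were nearly all paralogs or copies used in other tissues: Cox4i2, Cox6a2, Cox6b2, Cox7b2, Cox8b and Cox8c of complex IV, Cox6c-ps1, Ndufa4l2, the Ndufa10l1 copy on chromosome 6 and the Ndufs6 pseudogene. Cox4i2, Cox7b2 and Cox6c-ps1 had no count in any library, and none of the 10 exceeded 7.01 counts in a library. In the smallest library a count of 0 allows up to 0.172 CPM (3 counts, counting error only). The switches from Cox4i1, Cox6a1, Cox6b1, Cox7b, Cox8a or Ndufa4 to these paralogs could therefore not be tested, and no member of a minor form came near its major form. Reads shared with near-identical copies could limit some rows. In 31 members at least 1 library has a count that is not whole, among them both copies of Ndufv3, Uqcrb and Cox6b1, and Ndufa10l1, Ndufb4, Ndufb5, Ndufs5, Ndufa12, Uqcrc2, Cox7a2l2 and Atp5pb, and where the fractions come from was not tested. RefSeq places Cox7a2 on chromosome 8, where the files have the row Cox7a2l2, so which of these genes that row measures is uncertain. The same holds for the row Ndufa10l1 on chromosome 9, where RefSeq has Ndufa10, and for the row Atp5md on chromosome 10, since RefSeq has the gene of that older name, Atp5mk, on chromosome 1.

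**Figure D1:**
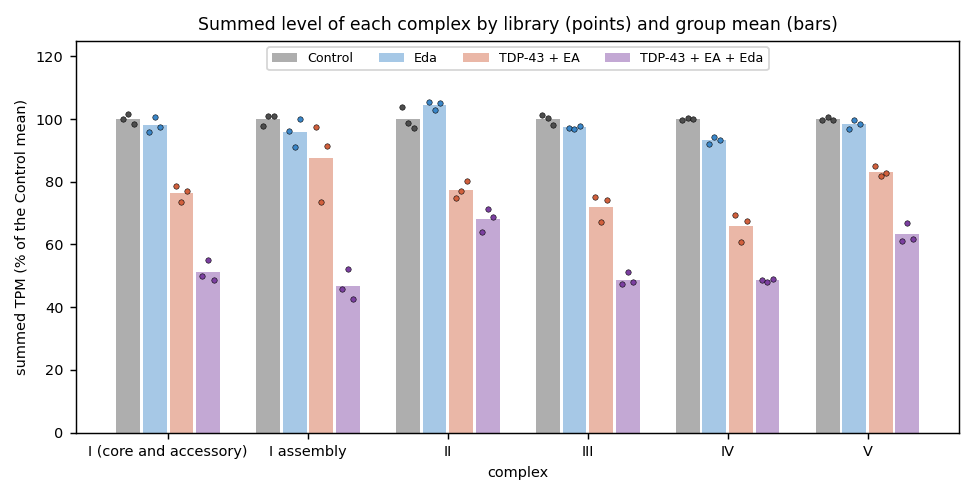
Summed TPM of each complex in every library (points) and as group mean (bars), as a percentage of the Control mean, for the 4 groups. In every complex the 3 TDP-43 + EA libraries lie below the 3 Control libraries and the 3 TDP-43 + EA + Eda libraries lie below those of TDP-43 + EA, with group means of 65.9 to 87.5% and 46.8 to 68.0% of the Control mean. This holds for TPM, and on TMM-scaled CPM 2 of these steps overlap and the group means are 74.7 to 90.5% and 62.4 to 83.7%. On TPM the median of all genes is also lower than in Control, with log2 fold changes of -0.11 and -0.38 (limma on log2(TPM + 1)).

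The comparison of stressed cells with Control asks what the viruses and ethacrynic acid together do to these genes. The median of each complex lay below 0. Of the 88 tested members 46 fell and 2 rose (edgeR adjusted p at most 0.05), which is 52.3% lower against 18.7% of all 13230 genes, and 2.27% higher against 19.6%. The median log2 fold change was -0.26, beside 0.00 for all genes tested. Fold changes were modest, from -0.80 for Cox8a to 0.97 for the ATP synthase inhibitor Atp5if1, and none reached the absolute log2 fold change of 1 that the study required of a differentially expressed gene, which 11.8% of all genes did. In 58 members the 3 stressed libraries lay below all 3 Control libraries (25.8% of all genes did so). Summed TPM fell short of Control by the most in complex IV, which stood at 65.9% of the Control mean, against 72.1% for complex III, 76.4% for complex I, 77.5% for complex II and 83.2% for complex V. On TMM-scaled CPM the sums stood at 74.7% in complex IV and 83.0 to 89.0% in complexes I, II, III and V, and the assembly factors overlapped Control. Leaving out 1 library at a time gave 34 to 49 lower calls, and 33 of the 46 were kept in every omission.

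The comparison of stressed + Eda cells with stressed cells asks what edaravone does in the stressed cells, where the members were lower still. Tardbp was called higher between the same groups, and its part in these changes was not tested. Of the 88 members 45 fell and 1 rose (51.1% lower against 15% of all genes, and 1.14% higher against 15.4%), with a median log2 fold change of -0.31 beside -0.02 for all genes. None of the called members reached an absolute log2 fold change of 1 (5.85% of all genes did). The range ran from -0.98 for the assembly factor Ndufaf6 to 0.58 for Atp5if1. Groups did not overlap in 56 members that were lower, where 20.3% of all genes behaved so. Both comparisons use the same stressed libraries. How many members pass the test here depends on the scaling, and the TMM factors of stressed + Eda cells are the lowest of the 4 groups. Scaled by library total alone, 80 members were lower and the median of all genes moved to -0.30 and that of the members to -0.59. The distance of the members from all genes was -0.29 under both. Other library factors shift every gene by nearly the same amount, so this distance cannot show an effect of the scaling. By library total the medians of the accessory subunits of complex I, of complex III and of complex V, given below under TMM, went to -0.63, -0.59 and -0.63. Leaving out 1 library gave 32 to 53 lower calls, with 32 when replicate 1 of stressed cells was left out, and 30 of the 45 were kept in every omission.

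Set against Control, stressed + Eda cells had 72 of 88 members lower and 1 higher (81.8% against 30.4% of all genes, and 1.14% against 27.1%), with a median log2 fold change of -0.58 beside -0.08 for all genes. In limma on log2(TPM + 1) these medians were -0.94 and -0.38. The members took 0.879 to 0.970% of all counts and summed to 26324 to 28036 TPM, where stressed libraries had 35584 to 38582 TPM. Here 8 members passed an absolute log2 fold change of 1 as well: Ndufa3, Ndufa2, Uqcr11, Ndufv3 on chromosome 13, Ndufaf6, Ndufa11 and Atp5f1a were lower and Atp5if1 was higher, while 23.9% of all genes passed both limits.

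**Figure D2:**
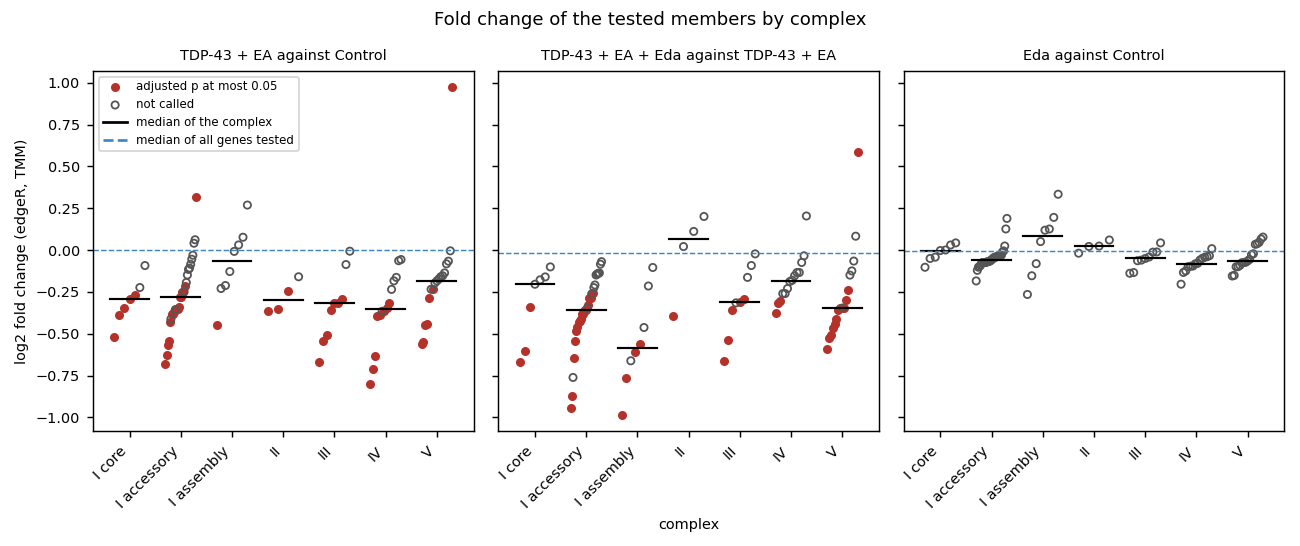
Log2 fold change of the 88 tested members by complex in 3 comparisons, each point a gene, with filled points at an adjusted p of at most 0.05, the median of each complex (black line) and the median of all genes tested (dashed line). Most filled points lie below the dashed line in the first and second comparison, Atp5if1 lies alone above them in complex V, and no point is filled for Eda against Control.

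Beside the counts of each complex below, 18.7% of all genes fell and 19.6% rose against Control. With edaravone in stressed cells these shares were 15% and 15.4%. The core subunits of complex I carry the flavin and the iron-sulfur clusters that take electrons from NADH. In stressed cells 5 of the 7 fell against Control and 3 of the 7 were lower again in stressed + Eda cells than in stressed cells, with medians of -0.29 and -0.20. The latter was -0.48 by library total, where all genes shifted to -0.30. Ndufs8, which holds a pair of iron-sulfur clusters, was at 119.7, 126 and 124 CPM in Control, 121, 122 and 114 CPM in Eda, 104, 103 and 99.9 CPM in stressed cells and 58.9, 76.7 and 57.9 CPM in stressed + Eda cells. No library of stressed + Eda cells overlapped the stressed libraries (log2 fold change -0.67, SE 0.10, adjusted p = 0.00021), and against Control the log2 fold change in stressed cells was -0.27 (adjusted p = 0.041). Ndufs1, the largest core subunit, fell in both, from 110.4, 109 and 109 CPM in Control to 75.7, 79.3 and 95.4 CPM in stressed cells and 42.6, 63.6 and 59.7 CPM in stressed + Eda cells (log2 fold changes -0.39, adjusted p = 0.024 and -0.60, adjusted p = 0.0027). The flavoprotein subunits Ndufv1 and Ndufv2 fell against Control, with log2 fold changes of -0.29 (adjusted p = 0.026) and -0.34 (adjusted p = 0.0009), and Ndufs3 was lower with edaravone (-0.34, adjusted p = 0.019). Ndufs7 was not called in either, at -0.22 and -0.20. Leaving out 1 library ended the Control comparison's calls of Ndufs8 in 9 of the 12 omissions and of Ndufs1 and Ndufv1 in 5 each (adjusted p up to 0.108), and that of Ndufs3 with edaravone without replicate 3 of stressed cells or of stressed + Eda cells (adjusted p up to 0.0783).

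Accessory subunits surround the core of complex I and do not carry electrons. Of the 29 tested, 16 fell and 1 rose in stressed cells against Control (median -0.28), and 18 fell in stressed + Eda cells against stressed cells (median -0.36). Ndufa3 (ENSRNOG00000060293, chr1:64172540-64175099 of Rnor_6.0), a small subunit with a transcript of 276 bases in the tables, moved the most: it was at 23.0, 19.9 and 20.5 CPM in Control, 19.3, 20.3 and 19.7 CPM in Eda, 16.2, 12.1 and 11.3 CPM in stressed cells and 7.26, 6.94 and 6.35 CPM in stressed + Eda cells. The 3 last libraries lay below all 3 of stressed cells, and these below all 3 of Control (log2 fold change -0.68, SE 0.15, adjusted p = 0.0028 for the earlier step and log2 fold change -0.94, SE 0.16, adjusted p = 0.00057 for the later). Ndufa2, a peripheral subunit with a thioredoxin-like fold, ran from 95.3, 108 and 105 CPM in Control to 81.2, 61.1 and 68.8 CPM in stressed cells and 35.1, 44.5 and 35.9 CPM in stressed + Eda cells (log2 fold changes -0.54, adjusted p = 0.0016 and -0.87, adjusted p = 9.8e-05). Again no groups overlapped. Ndufc2, a subunit of the membrane arm, was at 110.5, 112 and 104 CPM, 91.4, 79.4 and 85.3 CPM and 52.6, 58.0 and 53.5 CPM in the same groups (log2 fold changes -0.35, adjusted p = 0.0035 and -0.64, adjusted p = 7.9e-05).

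Ndufa11, whose promoter holds the NRF1 letters, fell in both comparisons (-0.63, adjusted p = 0.00019 and -0.43, adjusted p = 0.0058), from 101, 89.4 and 94.4 CPM in Control through 70.5, 58.6 and 55.3 CPM to 45.8, 49.5 and 42.0 CPM. Ndufb2 was alike in size (-0.43, adjusted p = 0.0013 and -0.33, adjusted p = 0.011), and Ndufa8, with its twin CX9C motifs, leaned to the second (-0.25, adjusted p = 0.03 and -0.54, adjusted p = 0.00039). Ndufs4, a subunit whose loss causes Leigh-like disease in mice, fell against Control, from 111, 113 and 113 CPM to 79.2, 72.0 and 76.3 CPM (log2 fold change -0.56, SE 0.09, adjusted p = 0.00024), with 82.8, 66.2 and 65.1 CPM in stressed + Eda cells (-0.08, adjusted p = 0.54). Ndufb10 (ENSRNOG00000014568, chr10:14090128-14092289 of Rnor_6.0), a membrane arm subunit, was the exception and rose, from 134, 136 and 136 CPM in Control to 170.1, 176 and 160.3 CPM in stressed cells (log2 fold change 0.32, SE 0.08, adjusted p = 0.0067). Its stressed + Eda libraries, at 152, 158 and 129 CPM, straddled those of Control and were not called against either group. By library total alone Ndufb10 was lower in stressed + Eda cells than in Control (log2 fold change -0.21, adjusted p = 0.042), as it was in limma on log2(TPM + 1) (-0.26, adjusted p = 0.0037), where TMM gave 0.11. Both values were smaller than the shift of the median of all genes there, to -0.39 and -0.38. The rise in stressed cells was called under each alternative but the minimum fold. The log2 fold changes of Ndufa5 and Ndufb6 were 0.04 and 0.06 against Control and neither was called; both turned negative on the TPM scale. Single libraries ended some calls, those of Ndufa10l1, Ndufb4, Ndufa8, Ndufb7 and Ndufb11 against Control in 3 to 9 of 12 omissions (adjusted p up to 0.182), and with edaravone those of Ndufa6 and Ndufb8 in 4 or 5 (adjusted p up to 0.152) and those of Ndufa12, Ndufb2, Ndufb5 and Ndufs5 without replicate 1 of stressed cells (adjusted p up to 0.0682).

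Assembly factors help to build complex I and are not part of it. Against Control Ndufaf7, a methyltransferase of the matrix, was the 1 that fell of 8 tested (-0.45, adjusted p = 0.019), with a median of -0.07, whereas in stressed + Eda cells against stressed cells 4 of 8 fell with a median of -0.58. Ndufaf6 was at 8.78, 6.14 and 6.17 CPM in Control, 7.51, 4.93 and 6.85 CPM in stressed cells and 3.52, 2.74 and 3.44 CPM in stressed + Eda cells (log2 fold change -0.98, SE 0.24, adjusted p = 0.0057 with edaravone, -0.13, adjusted p = 0.7 against Control). Ndufaf8 was at 23.8, 25.1 and 24.1 CPM, 29.7, 18.9 and 24.0 CPM and 14.3, 16.2 and 12.3 CPM (log2 fold change -0.76, SE 0.17, adjusted p = 0.0031). In both genes the stressed libraries spread around those of Control, and the stressed + Eda libraries lay below all of them. Ndufaf3 (-0.61, adjusted p = 0.0029) and Ndufaf4 (-0.56, adjusted p = 0.033) fell likewise with edaravone. Ndufaf5, an arginine hydroxylase of Ndufs7, had 0.27 against Control and -0.46 with edaravone and was not called, nor were Ndufaf1 (-0.23 and -0.66) and Ndufaf2 (0.08 and -0.10). By library total the median with edaravone was -0.86, where all genes shifted to -0.30. Levels here are low, between 2.49 and 62.2 CPM over the 12 libraries. The call of Ndufaf7 ended without replicate 1 or 3 of Control or replicate 1 of stressed cells (adjusted p up to 0.0841), and that of Ndufaf4 without replicate 1 or 3 of stressed cells or replicate 2 or 3 of stressed + Eda cells (adjusted p up to 0.135).

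Complex II, the succinate dehydrogenase, is the only complex made of nuclear subunits alone, and its members split. Sdha, the flavoprotein, was at 221, 218 and 218 CPM in Control, 224, 210.1 and 233 CPM in Eda, 165, 165 and 180.0 CPM in stressed cells and 122, 144 and 123 CPM in stressed + Eda cells. No groups overlapped along this order except Control and Eda, and it fell in both comparisons (log2 fold change -0.36, SE 0.08, adjusted p = 0.0026, then log2 fold change -0.39, SE 0.08, adjusted p = 0.0025). Sdhb, the iron-sulfur subunit, and Sdhd, a membrane anchor, fell against Control (-0.35, adjusted p = 0.0021 and -0.24, adjusted p = 0.019). Sdhd then stood at 241, 217 and 207 CPM with edaravone against 189, 202 and 188 CPM without, above in every library but not called (log2 fold change 0.20, SE 0.08, adjusted p = 0.056). Sdhb and the other anchor Sdhc had 0.11 and 0.02 there. These 3 positive values are relative to TMM scaling: by library total they were -0.17, -0.25 and -0.08 for Sdhb, Sdhc and Sdhd, so that the complex median of 0.07 turned to -0.21 while that of all genes moved to -0.30. Under DESeq2's size factors Sdhd was called higher. In stressed + Eda cells the summed TPM of complex II stood at 68.0% of the Control mean, the highest of the 5 complexes. On TMM-scaled CPM it stood at 83.7%, and its libraries (762 to 844 CPM) overlapped those of stressed cells (773 to 809 CPM). The call of Sdhd against Control ended without replicate 1 or 3 of Control or of stressed cells (adjusted p up to 0.0743).

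Complex III had 7 of 9 members lower in stressed cells than in Control and 5 of 9 lower in stressed + Eda cells than in stressed cells, with medians of -0.32 and -0.31. Uqcr11 (ENSRNOG00000016952, chr7:12171185-12175835 of Rnor_6.0), a small subunit next to the iron-sulfur protein, was at 169.7, 155 and 149 CPM in Control, 156, 145 and 153 CPM in Eda, 135, 93.0 and 105 CPM in stressed cells and 67.5, 77.7 and 65.5 CPM in stressed + Eda cells. The steps were -0.51 (SE 0.12, adjusted p = 0.0032) and -0.66 (SE 0.12, adjusted p = 0.00082) on the log2 scale, with no overlap at either. Uqcrfs1, the Rieske iron-sulfur protein that carries electrons to cytochrome c1, went from 116, 118 and 119 CPM in Control to 88.4, 86.3 and 101 CPM and then 59.0, 64.8 and 67.0 CPM (-0.36, adjusted p = 0.0037 and -0.53, adjusted p = 0.00035). Under TMM Uqcrq and Uqcr10, further small subunits, had their larger step at stressed cells against Control (-0.54, adjusted p = 0.0003 and -0.67, adjusted p = 0.0014), and the later one was -0.31 (adjusted p = 0.019) and -0.32 (adjusted p = 0.1). Over the alternatives the earlier step of Uqcrq ran from -0.66 to -0.484 and the later from -0.591 to -0.185. The difference between the steps was not tested. Of the 2 large core proteins, Uqcrc2 fell against Control (-0.29, adjusted p = 0.021) and Uqcrc1 did not pass (-0.09, adjusted p = 0.44). The hinge protein Uqcrh had -0.01 and -0.02, with 62.1, 63.6 and 58.5 CPM in Control and 64.8, 60.5 and 55.0 CPM in stressed + Eda cells, which overlap. Both Uqcrb rows have counts that are not whole, and both fell (-0.32 and -0.32 against Control). Omitting replicate 1 of Control or replicate 2 of stressed cells ended the Control call of Uqcrb on chromosome 1, and 4 omissions that of Uqcrc2 (adjusted p up to 0.0761), and with edaravone the calls of Uqcrb on chromosome 1 and Uqcrq ended without replicate 1 of stressed cells (adjusted p up to 0.122 over their omissions).

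**Figure D3:**
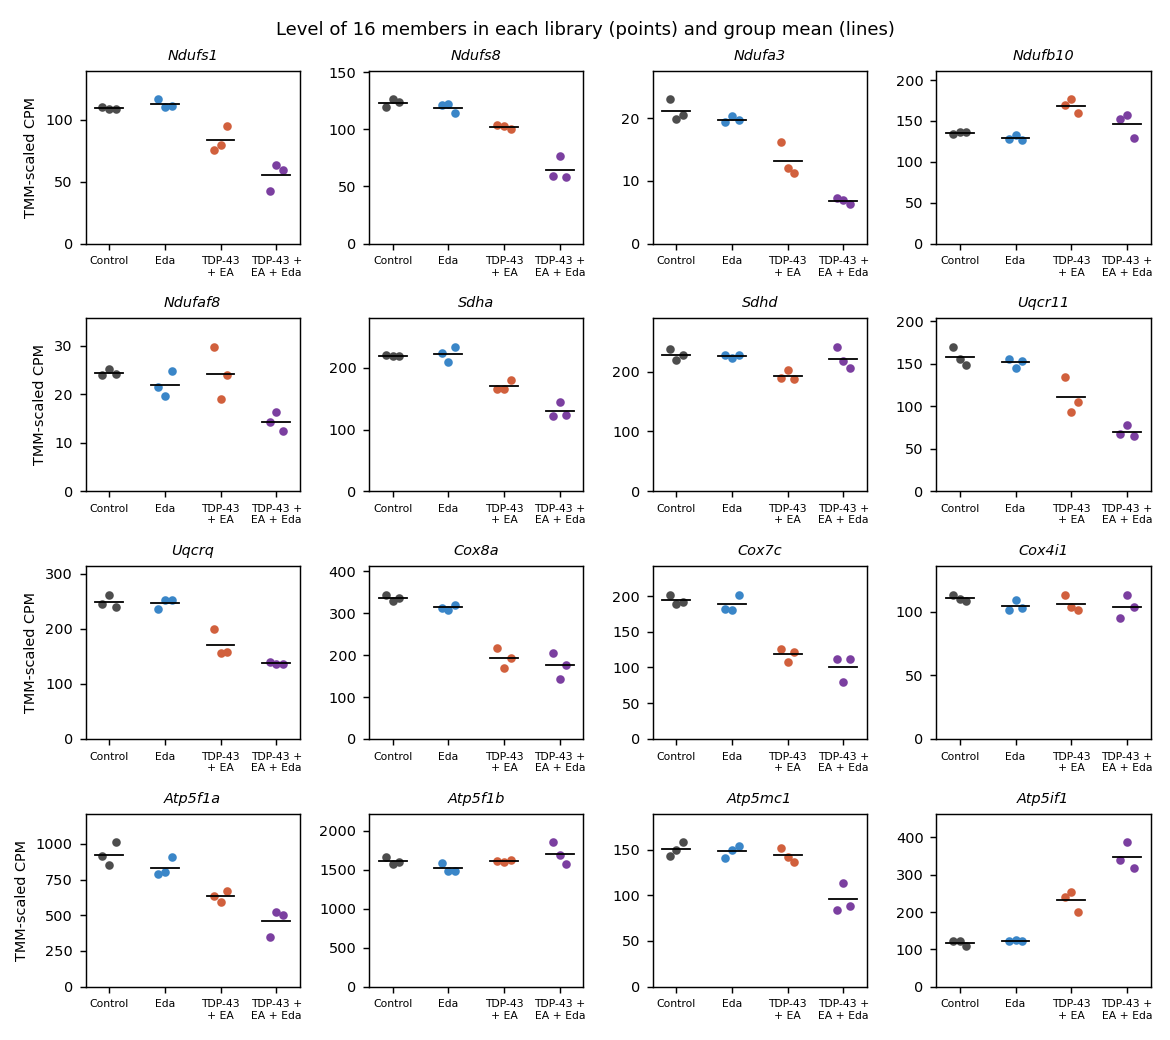
TMM-scaled CPM of 16 members in each library (points) with group means (lines), from 0 on each axis. Cox8a and Cox7c drop between Eda and TDP-43 + EA, Ndufs8, Ndufaf8 and Atp5mc1 between stressed and stressed + Eda cells, Ndufa3 and Uqcr11 at both steps, Cox4i1 and Atp5f1b at neither, and Atp5if1 climbs at both.

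In cytochrome c oxidase 8 of 14 tested members fell in stressed cells against Control (median -0.35), and 3 of 14 were lower with edaravone (median -0.18). The edaravone median was -0.46 by library total and -0.44 in limma on log2(TPM + 1), so the order of the steps depends on the scaling, and their difference was not tested. Cox8a (ENSRNOG00000021177, chr1:222466575-222468896 of Rnor_6.0), the ubiquitous form of subunit 8, was at 344, 328 and 337 CPM in Control, 313, 309 and 321 CPM in Eda, 218, 169 and 192 CPM in stressed cells and 206, 144 and 177 CPM in stressed + Eda cells. Its log2 fold change was the lowest among the 88 members in this comparison (log2 fold change -0.80, SE 0.12, adjusted p = 7.7e-05), the Eda libraries also lay below those of Control (-0.10, adjusted p = 1), and the stressed groups with and without edaravone overlapped (-0.13, adjusted p = 0.41). Cox7c was at 201, 189 and 192 CPM in Control, 126, 108 and 122 CPM in stressed cells and 112, 79.6 and 111 CPM in stressed + Eda cells (log2 fold change -0.71, SE 0.11, adjusted p = 0.0002, then -0.23, adjusted p = 0.15). Cox5b, a zinc-binding subunit on the matrix side, was at 396, 408 and 357 CPM, 284, 233 and 232 CPM and 230.2, 262 and 220.2 CPM (log2 fold change -0.63, SE 0.10, adjusted p = 0.00014, then -0.07, adjusted p = 0.61). All 3 genes thus stood lower in every stressed library than in every Control library. Cox6c (-0.39, adjusted p = 0.0011), Cox6b1 on chromosome 1 (-0.39, adjusted p = 0.0078) and Cox7a2l, which joins complexes III and IV in supercomplexes (-0.32, adjusted p = 0.0077), fell against Control too. Cox6a1 and the row Cox7a2l2 fell in both comparisons (-0.36, adjusted p = 0.0033 and -0.30, adjusted p = 0.014 for Cox6a1), although the later calls of both ended without replicate 1 of stressed cells (adjusted p up to 0.072). Ndufa4 passed for edaravone in stressed cells and not against Control (-0.38, adjusted p = 0.0044, against -0.16, adjusted p = 0.15 before). The difference between those effects was not tested.

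Cox4i1 and Cox5a, which join the complex early in its assembly, did not pass in either comparison. Cox4i1 had 113, 109.8 and 109 CPM in Control, 114, 104 and 102 CPM in stressed cells and 94.9, 113 and 104 CPM in stressed + Eda cells, which overlap throughout (log2 fold change -0.06, SE 0.08, adjusted p = 0.63, then log2 fold change -0.03, SE 0.08, adjusted p = 0.8). Cox5a had -0.06 (adjusted p = 0.5) and -0.13 (adjusted p = 0.16). Neighbouring subunits of a single complex therefore ranged from -0.80 to -0.06 in log2 fold change against Control, where the standard errors are 0.12 and 0.08.

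In the ATP synthase 6 of 17 members fell and 1 rose in stressed cells against Control (median -0.18, or -0.31 in limma on log2(TPM + 1)), and 11 fell and 1 rose in stressed + Eda cells against stressed cells (median -0.35). The α and β subunits, which form the catalytic hexamer in equal number, parted. Atp5f1a (ENSRNOG00000017032, chr18:74156553-74164495 of Rnor_6.0), the α subunit, was at 913, 851 and 1009.9 CPM in Control, 788, 799.6 and 905 CPM in Eda, 637, 593 and 669.5 CPM in stressed cells and 350.1, 524 and 504 CPM in stressed + Eda cells. Atp5f1b (ENSRNOG00000002840, chr7:2504695-2511749 of Rnor_6.0), the β subunit, was at 1666, 1571 and 1601 CPM, 1581, 1479.6 and 1482 CPM, 1605, 1598 and 1621.2 CPM and 1849, 1689 and 1573 CPM in these groups. The α gene fell at both steps (log2 fold change -0.55, SE 0.13, adjusted p = 0.0035, then log2 fold change -0.46, SE 0.13, adjusted p = 0.013, the latter lost at an adjusted p of 0.0523 without replicate 3 of stressed cells). The β gene had -0.00 and 0.08 and was not called, although it was lower with edaravone by library total (-0.20, adjusted p = 0.048) and in limma on log2(TPM + 1) (-0.17, adjusted p = 0.036), and in stressed + Eda cells against Control likewise (-0.24, adjusted p = 0.011 and -0.28, adjusted p = 0.001). By library total both were smaller than the shift of all genes, to -0.30 and -0.39. The log2 ratio of Atp5f1a to Atp5f1b, which does not depend on the scaling, averaged -0.81 in Control, -0.87 in Eda, -1.35 in stressed cells and -1.91 in stressed + Eda cells. In stressed + Eda cells replicates 1, 2 and 3 had -2.40, -1.69 and -1.64 (SD 0.42, where stressed cells had 0.08). This pair was chosen after its values were seen, so no test is given; only Control and Eda overlap.

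Of the other F1 subunits, the γ subunit Atp5f1c fell with log2 fold changes of -0.56 (adjusted p = 5.7e-05) and -0.30 (adjusted p = 0.011) and the ε subunit Atp5f1e with -0.44 (adjusted p = 0.0013) and -0.52 (adjusted p = 0.00067), whereas the δ subunit Atp5f1d passed with edaravone and not against Control (-0.08, adjusted p = 0.49 and -0.41, adjusted p = 0.0026). In the membrane part, Atp5mc1, Atp5mc2 and Atp5mc3 encode an identical mature subunit c, the ring that turns with the protons. Atp5mc1 was at 143, 149.7 and 158 CPM in Control, 152, 142 and 137 CPM in stressed cells and 83.6, 114 and 88.8 CPM in stressed + Eda cells (-0.07, adjusted p = 0.65, then -0.59, adjusted p = 0.00071). Atp5mc2 had -0.23 (adjusted p = 0.013) and -0.36 (adjusted p = 0.0012), the former lost without replicate 1 of Control (adjusted p = 0.0592), and Atp5mc3 -0.16 (adjusted p = 0.1) and -0.35 (adjusted p = 0.0026). The summed TPM of the 3 genes was 2548 to 2676 in Control, 2081 to 2207 in stressed cells and 1244 to 1438 in stressed + Eda cells. By share of the sum, Atp5mc2 was at 37.2 to 41.7% over the 12 libraries and Atp5mc1 at 27.2 to 33.1%. Over 6 two-sided exact permutation tests of the ratios of Atp5mc3 to Atp5mc1 and to Atp5mc2, the smallest p was 0.2 and the adjusted p at least 0.4, and 3 libraries against 3 cannot go below 0.1. Among the stalk and membrane subunits, Atp5po (-0.35, adjusted p = 0.0029) and Atp5mf (-0.51, adjusted p = 0.0047) fell with edaravone and had -0.14 (adjusted p = 0.16) and -0.23 (adjusted p = 0.13) against Control, although every stressed library lay below every Control library in both genes. Atp5me and Atp5mg fell in both comparisons (-0.45 and -0.44, -0.28 and -0.24), and Atp5pb, Atp5pd, Atp5pf and Atp5md passed in neither, with values from -0.35 to -0.07. The later calls of Atp5me and Atp5mg ended without replicate 1 of stressed cells (adjusted p up to 0.124).

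Atp5if1 (ENSRNOG00000013300, chr5:150719569-150723321 of Rnor_6.0) encodes the inhibitory factor that stops the ATP synthase from running backwards and consuming ATP when the membrane potential fails. It was the only member called higher at both steps. It stood at 123, 121 and 109 CPM in Control, 123, 124 and 124 CPM in Eda, 241, 255 and 199.8 CPM in stressed cells and 338, 387 and 317 CPM in stressed + Eda cells. Neither step had any overlap between libraries, and Control and Eda stood together. The rise was log2 fold change 0.97, SE 0.10, adjusted p = 3.2e-06 for stressed cells against Control and log2 fold change 0.58, SE 0.10, adjusted p = 0.00054 for edaravone in addition, and log2 fold change 1.56, SE 0.10, adjusted p = 9.2e-09 from Control to stressed + Eda cells. Each of these 3 calls was made under every alternative run, apart from the minimum fold in the first 2. Without Atp5if1 the medians of the members were -0.27 and -0.31.

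Edaravone alone is addressed by Eda against Control. No member passed (0% of all genes did in edgeR in either direction), and no member had an unadjusted p under 0.05, where 539 of the 13230 genes did. By other tools, 9 genes passed in DESeq2 and 1 in limma on log2(TPM + 1), none of them a member. The median log2 fold change of the members was -0.05 beside -0.01 for all genes, and 67 of 88 lay below 0. Values ran from -0.27 (SE 0.14) for Ndufaf7 to 0.33 (SE 0.17) for Ndufaf5. By complex the members with the smallest p were Ndufv2 (-0.10), Ndufb5 (-0.18), Sdhb (0.06), Uqcrc1 (-0.13), Cox5b (-0.20) and Atp5mf (-0.15), all with adjusted p = 1. In 15 members the 3 Eda libraries lay below the 3 Control libraries and in 1 above, against 7.07% and 5.5% of all genes. Summed TPM was at 93.3% of Control in complex IV and at 95.8 to 104% in the others.

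The interaction term asks whether edaravone acts differently in stressed cells than in Control cells. It was called negative for 14 members and positive for 1 (15.9% against 7.04% of all genes, and 1.14% against 8.42%). The median was -0.24 beside -0.02 for all genes, and called or not, the term lay below 0 in 79 of the 88 members. By library total it was called negative for 67, by upper-quartile factors for 30 and in the limma fits on TPM for 64 to 69. The median of all genes shifted as well, to -0.33, to -0.11 and to between -0.29 and -0.12. By library total the term was called in either direction for 3304 of all genes, where TMM gave 2045. Under these alternatives the positive term of Atp5if1 was not called (log2 value 0.21 to 0.42, adjusted p 0.0519 to 0.313). One term, that of Ndufaf6, also reached a size of 1 (4.75% of all genes did). With the replicate number as a block the term was called negative for 22 members. Under TMM without this block it was called for 2 core subunits of complex I (Ndufs1 and Ndufs8), 5 accessory subunits, 2 assembly factors, Sdha, 2 members of complex III, 2 of complex V and Atp5if1, and for none of complex IV. Complex IV has only 14 tested members, and 7.04% of all genes were called negative. The term of greatest size was that of Ndufaf6 (log2 fold change -1.10, SE 0.32, adjusted p = 0.033), which 8 omissions of 1 library ended (adjusted p up to 0.0794). For Ndufa2 the term was -0.80 (SE 0.16, adjusted p = 0.0049), with -0.07 for edaravone in Control cells and -0.87 in stressed cells. For Cox8a and Cox7c it was -0.03 and -0.19, not called. Omitting 1 library gave 8 to 28 terms called negative, with 8 without replicate 1 of Eda and 28 without replicate 2 of stressed + Eda cells. In every omission 8 genes kept their call: Ndufs8, Ndufa2, Ndufa3, Ndufa8, Ndufc2, Uqcrfs1, Atp5f1e and Atp5mc1.

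**Figure D4:**
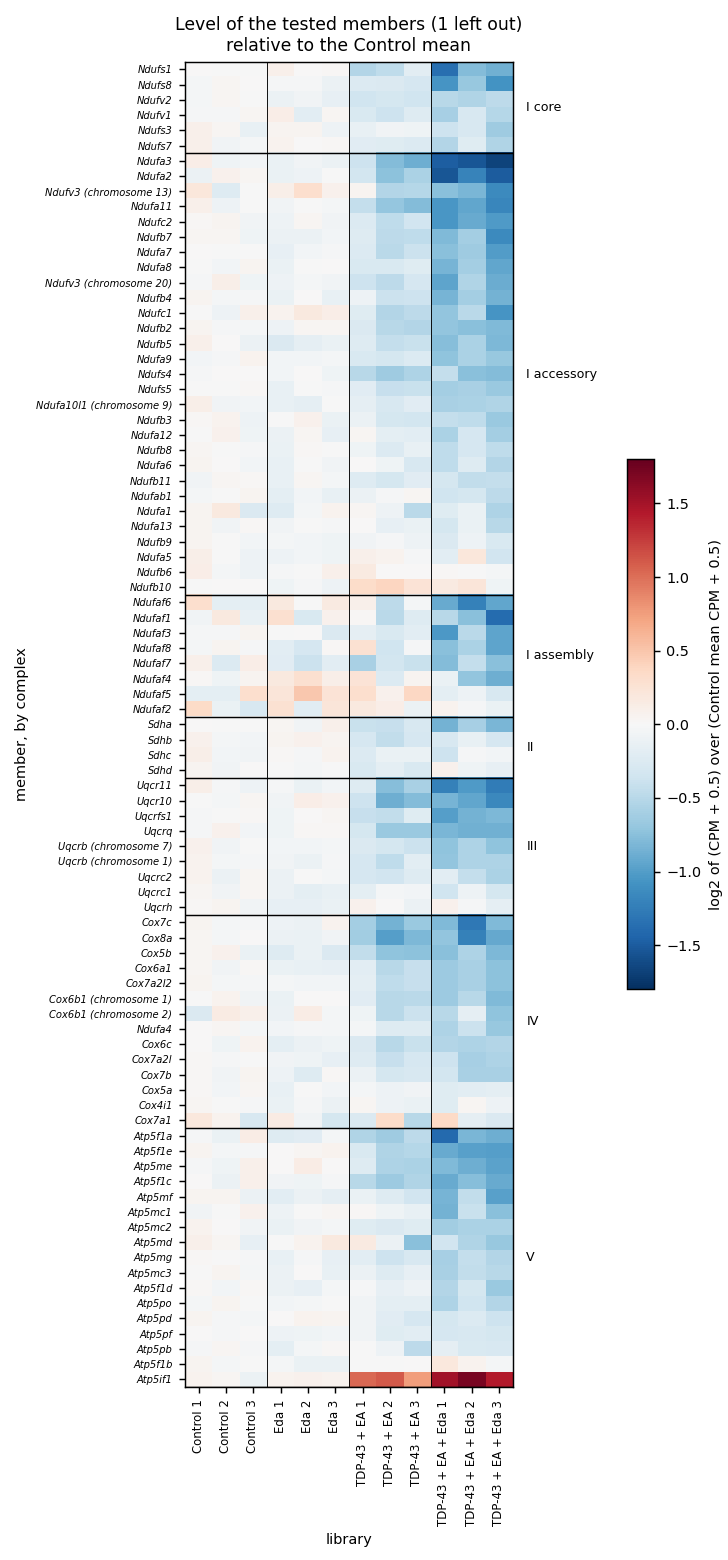
Level of the tested members, with 1 left out, in each library as log2 of (CPM + 0.5) over the Control mean (colour), ordered by complex and, within a complex, by the fold change of TDP-43 + EA + Eda against Control. Eda columns stay near the Control colour, blue deepens from the stressed to the stressed + Eda columns in most rows, and the row of Atp5if1 is the only one that is red throughout both stressed groups.

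Other genes of the pathway were taken from lists by function. Beside the counts of these lists, here and below, 18.7% of all genes fell and 19.6% rose against Control. With edaravone in stressed cells these shares were 15% and 15.4%. The 13 subunits encoded in mitochondrial DNA had 5 lower and 1 higher in stressed cells against Control (median -0.22) and 6 lower in stressed + Eda cells against stressed cells (median -0.29). Mt-nd1, a complex I subunit, fell at both (-0.70, adjusted p = 0.00017 and -0.87, adjusted p = 7.2e-05), Mt-nd3 and the oxidase subunit Mt-co2 likewise (-0.59, adjusted p = 0.0012 and -0.91, adjusted p = 0.0001 for Mt-nd3, -0.69, adjusted p = 0.0011 and -0.62, adjusted p = 0.0035 for Mt-co2), and Mt-nd5 was the 1 that rose (0.33, adjusted p = 0.005). Of 9 assembly factors of complex I that the naming rule misses, 2 fell against Control, led by Timmdc1 (-0.42, adjusted p = 0.0014), and 5 with edaravone, led by Lyrm2 (-0.78, adjusted p = 0.00043) and Ecsit (-0.53, adjusted p = 0.0029). Of 19 for complex IV, 7 fell and 2 rose against Control and 7 fell and 1 rose with edaravone. Among these Higd1a, a hypoxia-inducible partner of the oxidase, rose at both (0.77, adjusted p = 5.4e-05 and 0.30, adjusted p = 0.039), Coa5 fell at both (-0.47, adjusted p = 0.00034 and -0.30, adjusted p = 0.012) and Coa4 fell most with edaravone (-0.79, adjusted p = 0.00034). Of 3 for complex V, Tmem70 (-0.48, adjusted p = 0.033 and -0.78, adjusted p = 0.0032) and Atpaf1 (-0.44, adjusted p = 0.05 and -0.52, adjusted p = 0.032) fell in each comparison. Of 3 for complex II, Sdhaf2 fell against Control (-0.55, adjusted p = 0.00025) and Sdhaf3 with edaravone (-1.15, adjusted p = 0.018). For complex III, with cytochrome c1 among 7 genes, 2 fell and 1 rose against Control (Uqcc2 -0.55, adjusted p = 0.00038) and 2 fell with edaravone (Uqcc3 -0.70, adjusted p = 0.00031).

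Genes that make coenzyme Q, together with cytochrome c, were mixed (5 lower and 2 higher of 14 against Control, 2 lower and 1 higher with edaravone). The counts with edaravone do not exceed the shares of all genes (15% lower and 15.4% higher). Coq2, which attaches the side chain of coenzyme Q, fell against Control (-0.66, adjusted p = 0.00055), as did the kinase-like Coq8a (-0.72, adjusted p = 0.004), and Coq10b, a coenzyme Q binding protein, rose at both (0.58, adjusted p = 0.0043 and 1.02, adjusted p = 0.0001). In the citric acid cycle 2 of 12 fell against Control, near the share of all genes (18.7%). With edaravone 5 fell and 1 rose. Suclg2 was lower in both comparisons (-0.46, adjusted p = 0.00058 and -0.63, adjusted p = 0.00011) and fumarase Fh with edaravone (-0.76, adjusted p = 0.00048). Of 8 uncoupling proteins and other entries to coenzyme Q, 3 fell and 1 rose against Control and 3 fell with edaravone, led by Sqor against Control (-1.19, adjusted p = 7.1e-05) and by Etfb with edaravone (-0.78, adjusted p = 0.00014). Of 6 ADP/ATP and phosphate carriers and porins 3 rose against Control, among them Slc25a5 (0.34, adjusted p = 0.0036) and Vdac3 (0.27, adjusted p = 0.011), and Slc25a4 fell with edaravone (-0.32, adjusted p = 0.0033). Of 16 genes of glycolysis 10 rose and 3 fell against Control, with a median of 0.84 beside 0.00 for all genes, led by aldolase Aldoa (1.08, adjusted p = 3.8e-07) and Tpi1 (1.06, adjusted p = 6.2e-07). With edaravone 3 rose and 3 fell (median 0.14), with Ldhb (-0.76, adjusted p = 0.00016) and the muscle-type phosphofructokinase Pfkm (-1.83, adjusted p = 0.00017) lower.

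Of regulators of respiratory genes, 12 were tested. Of these 12 genes 5 rose and none fell in stressed cells against Control (median 0.33), and 4 rose and 1 fell in stressed + Eda cells against stressed cells (median 0.19). Yy1 rose at both (1.10, adjusted p = 4.6e-06 and 0.81, adjusted p = 0.00015), as did the GABP subunits Gabpa (0.39, adjusted p = 0.0062 and 0.29, adjusted p = 0.041) and Gabpb1 (0.66, adjusted p = 0.0039 and 0.70, adjusted p = 0.0033). Pprc1, a coactivator related to PGC-1α, rose against Control (0.80, adjusted p = 6.6e-05), and Polrmt, the mitochondrial RNA polymerase, was the 1 that fell with edaravone (-0.60, adjusted p = 0.033). RNA levels of these genes do not measure the activity of their proteins.

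**Figure D5:**
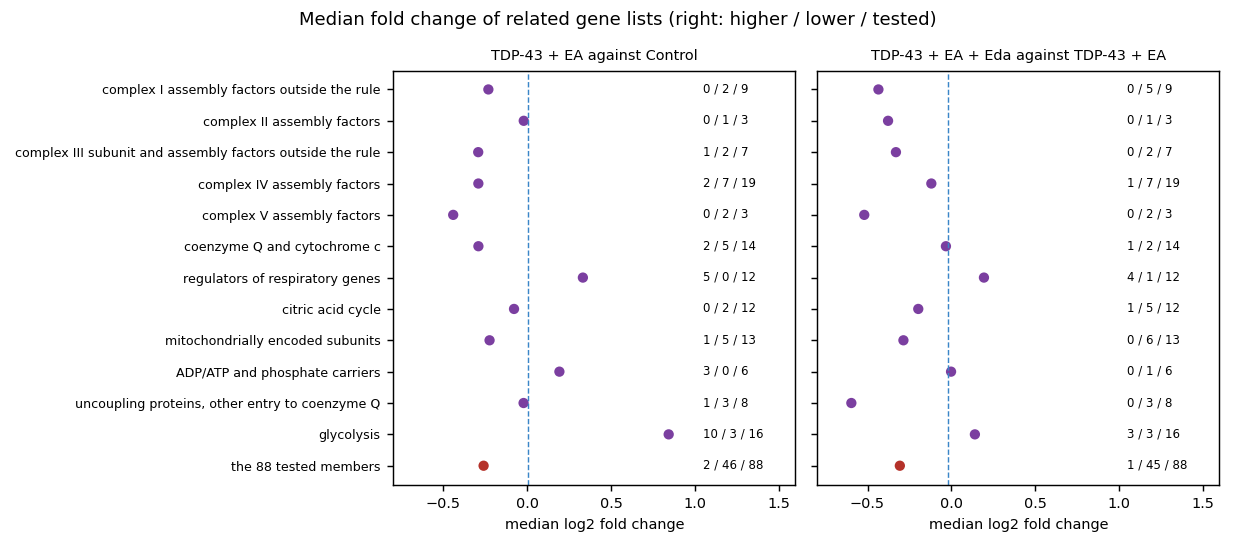
Median log2 fold change of each related gene list and of the 88 members in 2 comparisons, with the number of genes higher, lower and tested at the right and the median of all genes as a dashed line. Glycolysis (0.84) and the regulators (0.33) lie right of the line in the comparison with Control, and the members (-0.26 and -0.31) lie left of it in both.

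Several measures moved along with the members. All 8 oligodendrocyte markers fell in stressed cells against Control (median log2 fold change -1.08), and none was called with edaravone on top (median 0.01), where 45 members fell; the part of this change in the results was not tested. Neuron markers had 2 higher and 2 lower of 6 tested against Control, and with edaravone 1 lower. Of 6 astrocyte markers 3 were tested and 1 fell with edaravone, and microglial markers summed to at most 2.69 TPM in any library. By transcript length, 35 of the 88 tested members are under 600 bases. Their median was -0.36 against Control, where all 539 genes of that length had 0.05, and -0.32 with edaravone, where they had -0.09. In members of 2000 bases or more (7 genes) the medians were -0.36 and -0.39, beside 0.00 and 0.02 for all 7703 genes of that length.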

How the data were processed

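The authors aligned 150-base read pairs on DRAGEN to Rnor_6.0 with Ensembl transcripts and deposited estimated counts per gene, not normalized, and TPM, which are scaled for transcript length to a fixed total per library. Some estimated counts are not whole, and they were rounded. Whether counting used strand, and how it treated shared reads, was not stated in any source read here. Genes were kept with edgeR's filterByExpr (edgeR 4.0.16, R 4.3.3), scaled by TMM and tested with edgeR's quasi-likelihood test (robust) over all 12 libraries, with Benjamini-Hochberg adjustment over 13230 genes and a call at an adjusted p of at most 0.05. The fitting was tested on simulated data. Alternatives were other scalings, no filter, DESeq2 1.42.0, limma 3.58.1 on log2(TPM + 1) and log2(TPM + 0.1), fits of the compared groups alone, a replicate block, a minimum log2 fold change of 1 and omission of each library. Ratios between members used log2(CPM + 0.5) and exact permutation tests. Depth was 17.4 to 43.9 M counts per library, and intervals and floors cover counting error only.

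Members are named where they have 1 of the 4 smallest adjusted p in their class in TDP-43 + EA against Control, in the comparison of edaravone within stressed cells, or in Eda against Control. Isoform families, the highest and lowest member of each class by TPM in Control, and called members past the minimum fold are named too, with the 2 genes of smallest adjusted p in each related list. Further members are named with values, and those were chosen after their values were seen. The members and lists were chosen with earlier results of these data known. Values of 1 tested member are not reported here singly, and it stays in the counts, sums and medians.

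Replicate numbers are shared between groups. Deviations of libraries with the same number correlated at 0.117, 0.179 and 0.183 between Eda and Control, which counts as paired here, and at 0.0937 to 0.139 or 0.091 to 0.138 in the other 2 main comparisons, which do not all exceed 0.1.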

Additional observations from a re-analysis of the deposited data

Results flagged for a closer look

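The interaction term gives the effect of edaravone in TDP-43 + EA cells less its effect in Control cells, and 15 members passed its test (edgeR, adjusted p at most 0.05). On the log2 scale it was -0.6445 for Ndufs1 and -0.6177 for Ndufs8 among the core subunits of complex I. Among accessory subunits it was -0.7999 for Ndufa2, -0.8446 for Ndufa3, -0.5019 for Ndufa8, -0.34 for Ndufa9 and -0.6096 for Ndufc2. The assembly factors Ndufaf5 and Ndufaf6 had -0.7963 and -1.103. In complexes II and III it was -0.4136 for Sdha, -0.6033 for Uqcr11 and -0.5239 for Uqcrfs1. In the ATP synthase it was -0.5587 for Atp5f1e and -0.5717 for Atp5mc1, and the inhibitor Atp5if1 had the 1 positive value, 0.517. By library total, upper-quartile factors and limma on TPM the term of Atp5if1 was not called (adjusted p 0.0519 to 0.313). Leaving out 1 library ended the term of Ndufa9 and Ndufaf5 in 9 omissions each, of Ndufaf6 in 8, of Sdha in 7, of Ndufs1 and Uqcr11 in 4 and of Atp5if1 in 2, with an adjusted p up to 0.108. Groups of 3 libraries are too small for a search for outlying libraries.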

How the results depend on the processing

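Members called under TMM kept their direction in the alternatives run, and lost calls rather than turning. Ndufb10 and Atp5f1b, above 0 and not called in stressed + Eda against Control under TMM, were called lower there by library total and on TPM, and Atp5f1b also with edaravone. The median of all genes moved further than these 2 genes. Against Control it went to -0.39 by library total and -0.38 in limma on log2(TPM + 1), and with edaravone to -0.30 and -0.23. With a minimum log2 fold change of 1, calls in stressed cells (TDP-43 + EA) against Control went to 0 higher and 0 lower, those for edaravone in stressed cells to 0 and 0, those in stressed + Eda cells against Control to 7 lower, and those of the interaction to 0 higher and 1 lower. For edaravone in stressed cells 2 members were higher under DESeq2 size factors, the DESeq2 test and the replicate block, where Sdhd joined Atp5if1. By library total and in the 3 limma fits on TPM 80 were lower. The median of all genes there was -0.30 by library total and -0.25 to -0.09 in the limma fits. The interaction was called higher for 0 members by library total, upper-quartile factors and the 3 limma fits. It was called lower for 67 by library total, 30 by upper-quartile factors, and 69, 69 and 64 in limma with a pseudocount of 1, of 0.1 and without a filter. The median of all genes in the interaction moved there too, to -0.33, -0.11, -0.26, -0.29 and -0.12. The replicate block gave 22 lower in the interaction and left the counts of lower members in the other comparisons within 1.5 times, although every same-numbered correlation exceeded 0.1 only between Eda and Control, where it called 0 members. Every library correlated best with its own number. Without 1 library, higher calls ran from 1 to 2 for edaravone in stressed cells and for stressed + Eda against Control, the 2 without replicate 3 of stressed + Eda. The interaction ran from 8 to 28 lower and from 0 to 1 higher, the 0 without replicate 1 of Control or replicate 3 of the stressed cells. In limma on log2(TPM + 1) the medians of stressed cells against Control were -0.38 for core and for accessory subunits of complex I. For complexes II, III and IV they were -0.40, -0.47 and -0.50, where the median of all genes was -0.11. The cause of these moves was not tested. The 10 members that were not tested had too few counts for the filter at these depths, and the complex I assembly factors are the least abundant class tested.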
